A study of Penicillium oxalicum with 18 samples.

Results

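A set of 124 of the 9176 gene models of Penicillium oxalicum lost most of its transcript level without vib1 when the mycelium grew in N-acetylglucosamine (GlcNAc), and stayed within 1 log2 unit of the wild type in glucose and in bran plus cellulose. The members were chosen from the measured values. For each medium the strain difference was taken as log2(mean FPKM + 1) of the 3 deletion libraries minus the same of the 3 wild-type libraries. Members had a difference of −2 or lower in GlcNAc, differences between −1 and 1 in both other media, and a wild-type mean of at least 10 FPKM in GlcNAc. FPKM stands for fragments per kilobase and per unit of mapped fragments, a level corrected for gene length and library size. Of the members, 123 had IDs starting with PDE and 1 was XLOC_005076.

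The study compared strain 114-2, the wild type, with a strain in which vib1 was deleted, called the mutant here. Mycelia were grown for 24 h at 30 °C in glucose medium and then kept for 24 h in 2% glucose, in 2% GlcNAc, or in 1% bran with 1% microcrystalline cellulose. With 3 libraries for each strain on each medium, there were 6 groups and 18 libraries. The protocol spells out the pre-culture and transfer for glucose and for bran plus cellulose, and the GlcNAc cultures, named in each sample's treatment, are taken to have followed it. The labels give neither the number of deletion clones nor whether replicates were separate cultures, so p-values here reflect only how far these samples vary, and that variation may be technical.

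Filamentous fungi carry Vib1 as a DNA-binding transcription factor with a fold like that of p53. Its Neurospora counterpart is known for roles in cell death after fusion of unlike strains and in the secretion of hydrolytic enzymes. GlcNAc is the monomer of chitin, a main polymer of the fungal cell wall. Fungi that use it as a carbon source phosphorylate it, remove the acetyl group and the amino group, and pass the product into glycolysis. Glucose is a readily used sugar, and bran with cellulose supplies plant polysaccharides that must first be broken down outside the cell.

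The deposited table gives no gene names, and 0 of its IDs matched the 9964 entries of the available reference table for another strain. No role can therefore be given to any member, no gene list or sequence could be used, and members appear under their IDs. For the same reason vib1 itself could not be looked up, so the strain labels have no check from the deleted gene. Library totals lay between 915811 and 1119470 FPKM, and Spearman correlations between replicates were at least 0.968. In GlcNAc the totals were 1079700 to 1119470 FPKM in the wild type and 921337 to 945944 FPKM in the mutant, so they differed along the strain contrast. The mutant totals were lower in glucose as well, and overlapped those of the wild type on bran plus cellulose. With all libraries at the same total, 96 of the 124 members stayed in the set. Read depth is unknown. Of the 18 libraries, 3 stood over 1 log2 unit from both other replicates of their group in more than 5% of the members: replicate 1 of the mutant in glucose (8.87% of members, 1.79% of the 6247 gene models with at least 10 FPKM in wild-type GlcNAc), replicate 3 of the wild type on bran plus cellulose (8.06% and 3.11%) and replicate 2 of the mutant in GlcNAc (7.26% and 0.624%). An exact 0 can be a failed estimate, since 415 zeros stood beside a replicate of the same group above 10 FPKM. Members without expression are therefore said to be listed at 0, and no plain fold is given against them. Differences in log2 units that involve a group listed at 0 rest on the 1 added to FPKM.

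Together the members took between 2.19% and 4.09% of the summed FPKM in 15 libraries and far less in the 3 others, those of the mutant in GlcNAc. In GlcNAc they made up 3.25%, 3.33% and 3.37% of the total in the wild-type libraries and 0.389%, 0.392% and 0.414% in the deletion libraries. The glucose shares were 3.46%, 3.43% and 3.31% in the wild type and 3.96%, 4.09% and 3.98% in the mutant. Bran plus cellulose gave 2.84%, 2.68% and 2.19% in the wild type and 2.82%, 2.68% and 3.06% in the mutant. The 3 deletion libraries in GlcNAc thus stood below all 15 others. The rule sets this for the group means against the wild type in GlcNAc only, and does not bound it against the other media. It still favours it there, since members were chosen for low deletion values in GlcNAc, so the shares are a description. Without PDE_00509, the most abundant member, the 3 lay between 0.361% and 0.378% and the other 15 between 1.72% and 2.89%. In these cultures fewer cells of a kind and less RNA per cell cannot be told apart.

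**Figure D1:**
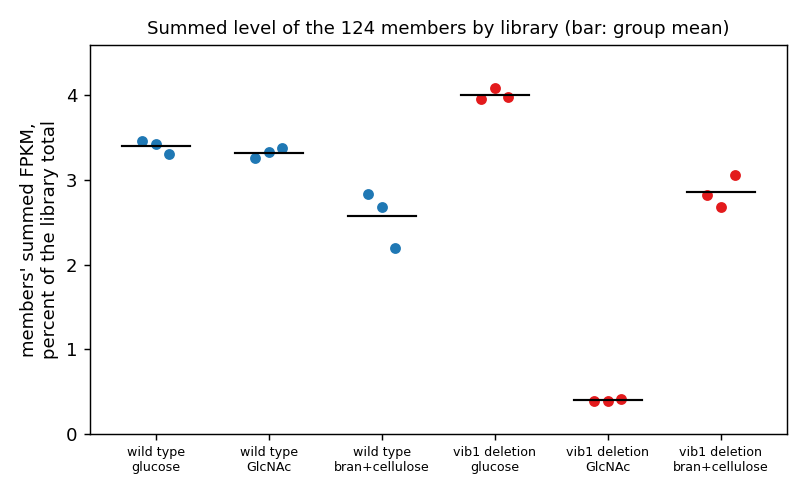
Summed FPKM of the 124 members as a percentage of the library total, for the 18 libraries (points; blue wild type, red vib1 deletion; bar, mean of 3). The 3 deletion libraries in GlcNAc lie between 0.389% and 0.414%, and the lowest other library, replicate 3 of the wild type in bran plus cellulose, lies at 2.19%.

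The median member stood at 67.8 FPKM in the wild type and 6.93 FPKM in the mutant in GlcNAc. In glucose the medians were 34.3 and 28.3 FPKM, and in bran plus cellulose 36.9 and 37.2 FPKM. In wild type in GlcNAc the means ran from 10.2 to 6013 FPKM, with 50 members above 100 FPKM. In the mutant in GlcNAc, 24 members averaged under 1 FPKM, and 53 kept 10 FPKM or more. Of the 124 members, 99 were above 0 in all 3 deletion libraries in GlcNAc, 8 were listed at 0 in 1 of them, 3 in 2, and 14 in all 3. The GlcNAc strain difference had a median of −2.89 log2 units with quartiles at −3.68 and −2.36. It was −3 or lower in 57 members and −5 or lower in 12. Among these 12, PDE_08250, PDE_00449, PDE_05013, PDE_08817, PDE_08226 and PDE_08258 were listed at 0 in all 3 deletion libraries in GlcNAc, and PDE_03511 in 2. The size of their differences rests on the 1 added to FPKM. All 3 wild-type libraries exceeded all 3 deletion libraries in each of the 124 members, which the rule nearly fixes, and in 38.2% of the 6247 gene models with at least 10 FPKM in the wild type in GlcNAc.

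The rule narrowed those 6247 gene models to 419 with a GlcNAc difference of −2 or lower. Of the 419, 229 fell by at least 1 log2 unit in glucose as well and 32 were higher there by as much, which left 158. Of the 158, 15 were lower and 19 higher by at least 1 log2 unit in bran plus cellulose, which left 124. The same rule with the media exchanged gave 98 gene models lower in glucose alone. A further 80 were lower by at least 2 log2 units on both sugars and within 1 unit on bran plus cellulose, with at least 10 FPKM in the wild type on each sugar. In the opposite direction, 158 gene models were higher in GlcNAc alone, by at least 2 log2 units and with at least 10 FPKM in the mutant.

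The edges of the set are close to the bounds. PDE_04612, the member nearest the GlcNAc bound, had a strain difference of −2.02, and PDE_01796, just outside, one of −1.998. At the glucose bounds XLOC_005076 lay inside at −0.95 and PDE_09243 outside at −1.003, and PDE_09053 lay inside at 0.997 and PDE_01067 outside at 1.04. At the bounds for bran plus cellulose PDE_08788 lay inside at −0.98 and PDE_08927 outside at −1.14, and PDE_04660 lay inside at 0.99 and PDE_05603 outside at 1.14. PDE_03534 entered with a wild-type mean of 10.2 FPKM in GlcNAc, and PDE_09419 stayed out with 9.77 FPKM.

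The set describes sizes of difference, not the absence of any strain difference elsewhere. In a limma model of all 8455 gene models tested, all 124 members were called lower in GlcNAc at an adjusted p under 0.05, where 29.7% of the gene models tested were called lower and 44.8% higher. In glucose 29 members were called lower and 12 higher, against 22.8% and 42.1% of all tested. In bran plus cellulose 13 were called lower and 10 higher, against 13.5% and 13.2%. The rule used these contrasts, so the counts are descriptions. Both differences outside GlcNAc lay within 0.5 log2 units in 52 members. The median strain difference of the members was −0.09 in glucose and −0.02 in bran plus cellulose, where the medians of all gene models tested were 0.19 and 0.01. In GlcNAc the median of all gene models tested was 0.21.

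The most abundant member in the wild type in GlcNAc was PDE_07106. It stood at 5828, 5828 and 6384 FPKM in the wild type in GlcNAc and at 118, 124 and 135 FPKM in the mutant. In glucose it stood at 2892, 2826 and 2694 FPKM in the wild type, against 3269, 2505 and 2099 FPKM in the mutant. In bran plus cellulose the values were 1261, 1473 and 1004 FPKM in the wild type and 992, 726 and 1096 FPKM in the mutant. The strains overlapped in both of these media and were far apart in GlcNAc, with strain differences of −5.57 in GlcNAc, −0.10 in glucose and −0.41 in bran plus cellulose.

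PDE_00509 was next, and was the most abundant member over all groups. It stood at 6002, 6056 and 5205 FPKM in the wild type and 252, 297 and 331 FPKM in the mutant in GlcNAc. In glucose it reached 12550.2, 11936 and 11733 FPKM in the wild type and 12559.7, 16107 and 17061 FPKM in the mutant. On bran plus cellulose it stood at 8558, 8009 and 3714 FPKM in the wild type and 10617, 9914 and 11595 FPKM in the mutant. Its wild-type level was thus lower in GlcNAc than in glucose, and the deletion libraries in GlcNAc lay far below every other library. The strain difference in GlcNAc was −4.29.

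Among members above 0 in all deletion libraries in GlcNAc, PDE_00370 and PDE_07409 had the lowest strain differences at a pseudocount of 1. That of PDE_00370 ran from −7.87 with a pseudocount of 0.1 to −4.03 with 5. With 5, PDE_07106 (−5.53) lay below both, and after quantile normalization it (−5.65) lay below PDE_07409 (−5.60). PDE_00370 stood at 73.8, 80.7 and 88.2 FPKM in the wild type in GlcNAc and at 0.17, 0.22 and 0.35 FPKM in the mutant (difference −6.04). In glucose it averaged 15.3 ± 3.34 FPKM (SD, n = 3) in the wild type and 13.8 ± 10.4 FPKM in the mutant, and on bran plus cellulose 3.99 ± 0.960 and 4.07 ± 2.29 FPKM. PDE_07409 stood at 363, 371 and 324 FPKM in the wild type in GlcNAc and at 4.38, 4.41 and 9.90 FPKM in the mutant (difference −5.61). In glucose it averaged 43.4 ± 5.84 and 53.7 ± 7.75 FPKM, and on bran plus cellulose 6.53 ± 0.676 and 7.24 ± 0.608 FPKM. In both genes the order of the media in the wild type was GlcNAc over glucose over bran plus cellulose, and the strains overlapped outside GlcNAc.

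**Figure D2:**
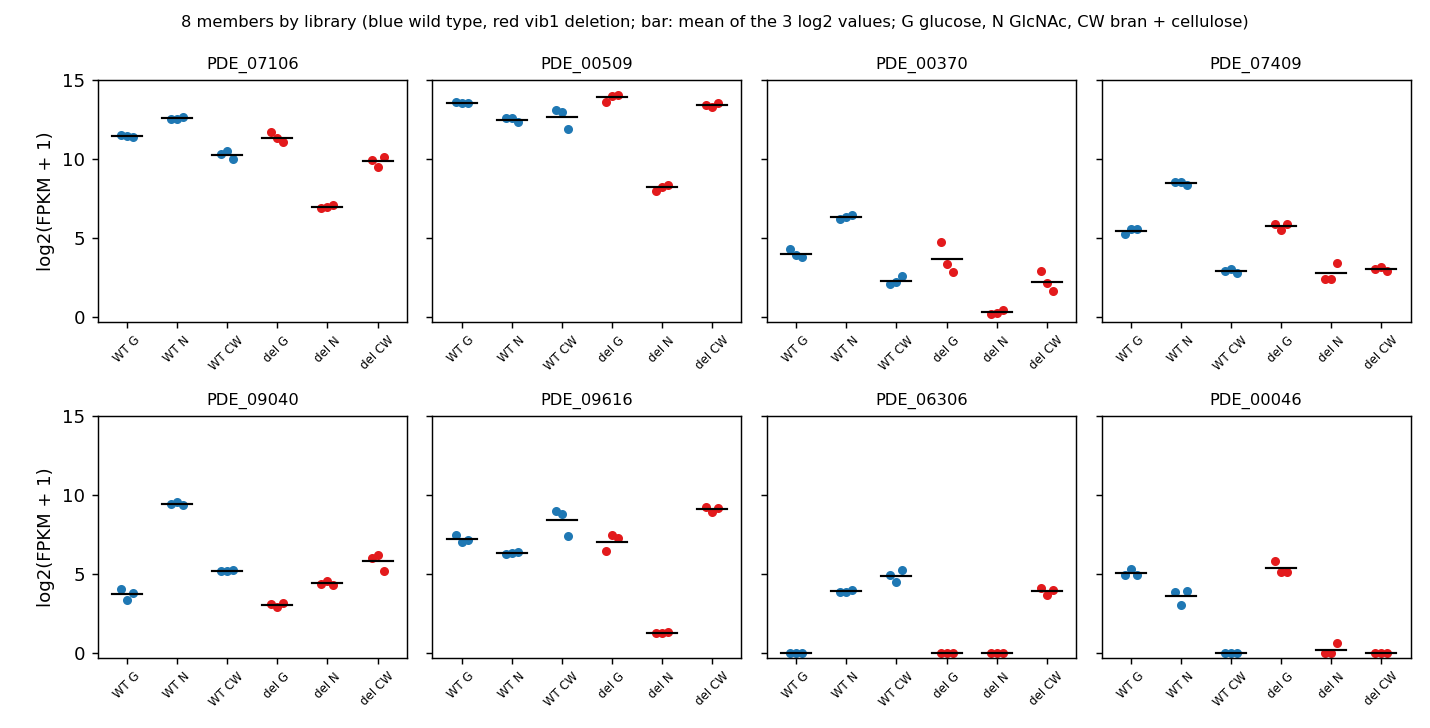
Levels of 8 members in the 18 libraries as log2(FPKM + 1) (points, 3 libraries a group; bar, mean of the 3 log2 values; blue wild type, red vib1 deletion). The wild-type and deletion libraries separate in GlcNAc in every panel, while the wild-type level in GlcNAc lies above the other media in PDE_07106, PDE_00370, PDE_07409 and PDE_09040 and not in the remaining 4.

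A low level in the mutant relative to wild type can come with a wild-type level that is higher in GlcNAc than elsewhere, with a deletion level that is lower in GlcNAc than elsewhere, or with both. The members were divided by their change from glucose to GlcNAc within each strain, at 1 log2 unit. By the rule the wild-type change exceeded the deletion change by more than 1 log2 unit in every member. The values in GlcNAc chose the members, so the following counts are descriptions with no test. In wild type 70 of 124 members were at least 1 log2 unit higher in GlcNAc than in glucose, against 8.21% of the 6247 gene models. In the mutant 83 were at least 1 log2 unit lower, against 12.1%. Without replicate 1 of the mutant in glucose that number was 76, and without replicate 2 of the mutant in GlcNAc it was 80.

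In a first class of 37 members the wild type was higher in GlcNAc and the mutant stayed within 1 log2 unit of its glucose level. Their median levels were 5.14 FPKM in glucose and 44.4 FPKM in GlcNAc in the wild type, and 3.81 and 4.57 FPKM in the mutant. In a second class of 47 members the wild type stayed within 1 log2 unit and the mutant was lower. Their medians were 94.0 and 83.9 FPKM in the wild type, and 108.8 and 11.7 FPKM in the mutant. In 31 members the wild type was higher and the mutant lower, with medians of 43.1 and 114.4 FPKM in the wild type and 37.9 and 6.23 FPKM in the mutant. The first of these classes thus had low medians in glucose in both strains and the second high ones, but both were broad. The division itself favours this. With at least 10 FPKM in GlcNAc, a wild type within 1 log2 unit cannot be very low in glucose. A mutant very low in glucose cannot fall by 1 log2 unit at a pseudocount of 1. In wild-type glucose the first ran up to 221 FPKM (PDE_01808), and the second down to 5.44 FPKM (PDE_08098), both named after their values were seen.

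**Figure D3:**
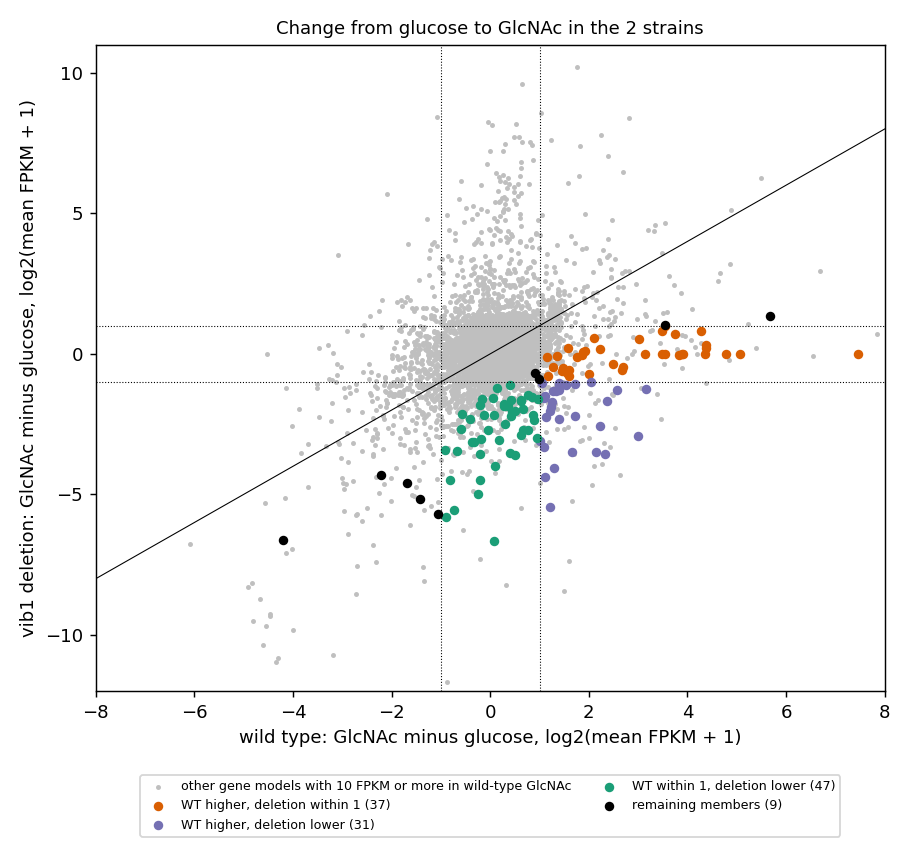
Change from glucose to GlcNAc in the wild type (horizontal axis) and in the mutant (vertical axis), as differences of log2(mean FPKM + 1); dotted lines mark 1 log2 unit, the diagonal equal change, and grey points are other gene models with at least 10 FPKM in the wild type in GlcNAc. All members lie below the diagonal, 37 along the horizontal band (orange), 47 in the vertical band (green), 31 in the lower right (purple) and 9 elsewhere (black).

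PDE_08250 and PDE_09040 had the largest wild-type differences between GlcNAc and glucose. PDE_08250 was above 0 only in the wild type in GlcNAc, at 177, 186 and 160 FPKM. A further 3 members behaved almost alike and were picked after their values were seen. PDE_08258 stood at 33.0, 32.0 and 31.7 FPKM in the wild type in GlcNAc and was listed at 0 in the other 15 libraries. PDE_02105 stood at 11.4, 10.2 and 10.4 FPKM and was likewise listed at 0 elsewhere. PDE_09508 stood at 19.9, 19.96 and 18.8 FPKM and had 1 other value above 0, of 0.34 FPKM, in the mutant on bran plus cellulose. These 4 members stayed under 1 FPKM in all 12 libraries without GlcNAc.

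PDE_09040 kept part of its response without vib1. In wild type it stood at 15.7, 9.29 and 13.1 FPKM in glucose and at 701, 748 and 653 FPKM in GlcNAc. The mutant had 7.54, 6.53 and 8.18 FPKM in glucose and 19.3, 23.1 and 18.8 FPKM in GlcNAc. The difference between the media was 5.68 log2 units in the wild type and 1.35 in the mutant, and the libraries of the media did not overlap in either strain. PDE_01408 was the only other member at least 1 log2 unit higher in GlcNAc in both strains, by 3.55 and 1.03, with at most 2.43 FPKM in a deletion library in GlcNAc.

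PDE_05013 and PDE_09616 had the lowest deletion differences among members whose wild-type level stayed within 1 log2 unit. PDE_05013 stood at 60.4, 59.3 and 69.5 FPKM in glucose and at 69.6, 67.7 and 63.6 FPKM in GlcNAc in the wild type. In the mutant it stood at 93.0, 101.9 and 103.6 FPKM in glucose and was listed at 0 in all 3 libraries in GlcNAc, although both strains had between 40.7 and 63.6 FPKM on bran plus cellulose. PDE_09616 stood at 176, 132 and 141 FPKM in glucose and at 77.2, 79.1 and 82.8 FPKM in GlcNAc in the wild type. In the mutant it stood at 85.4, 174.6 and 152.8 FPKM in glucose and at 1.45, 1.38 and 1.52 FPKM in GlcNAc, a difference of −5.82 log2 units. Both were expressed in every library of the other 5 groups, at no less than 40.7 FPKM.

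In 5 members the wild type itself was lower in GlcNAc than in glucose by at least 1 log2 unit, and the mutant was lower still. They were PDE_00046, PDE_00509, PDE_08631, PDE_09230 and PDE_09244, and they are named because they are few. PDE_09230 stood at 616, 719 and 660.0 FPKM in glucose and at 37.7, 36.5 and 31.2 FPKM in GlcNAc in the wild type. The mutant had 25.03, 497 and 549 FPKM in glucose and 2.48, 2.30 and 3.18 FPKM in GlcNAc. Its replicate 1 of the mutant in glucose lies far below the other two, and its strain difference in glucose is −0.90 with that library included. PDE_09244 averaged 887 ± 22.9 FPKM in glucose and 191 ± 19.0 FPKM in GlcNAc in the wild type, and 577 ± 169 and 28.5 ± 2.03 FPKM in the mutant. In PDE_00766 and PDE_04367, the remaining 2 members, neither strain changed by 1 log2 unit between glucose and GlcNAc. Their strain differences in GlcNAc were −2.04 and −2.22, beside −0.45 and −0.34 in glucose.

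Bran plus cellulose as the reference in place of glucose gave a like division. The wild type was at least 1 log2 unit higher in GlcNAc in 59 members (8.5% of the 6247 gene models) and the mutant at least 1 log2 unit lower in 90 (12.8%). Against both other media at once, 49 members were higher in the wild type and 72 were lower in the mutant, 14 of them in both groups, which left 17 in neither. By libraries, the 3 wild-type values in GlcNAc exceeded all 15 others in 66 members (16% of the 6247). The 3 deletion values in GlcNAc lay below all 15 others in 75 members (8.29%), and 29 members met both conditions. Of the 6 group means, that of the wild type in GlcNAc was the highest in 80 members and that of the mutant in GlcNAc the lowest in 94. No share over the 6247 gene models was taken for the counts against both media, for both conditions or for the group means. The values in GlcNAc chose the members, so the rule favours every count in this paragraph, and nothing is read from any of them.

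**Figure D4:**
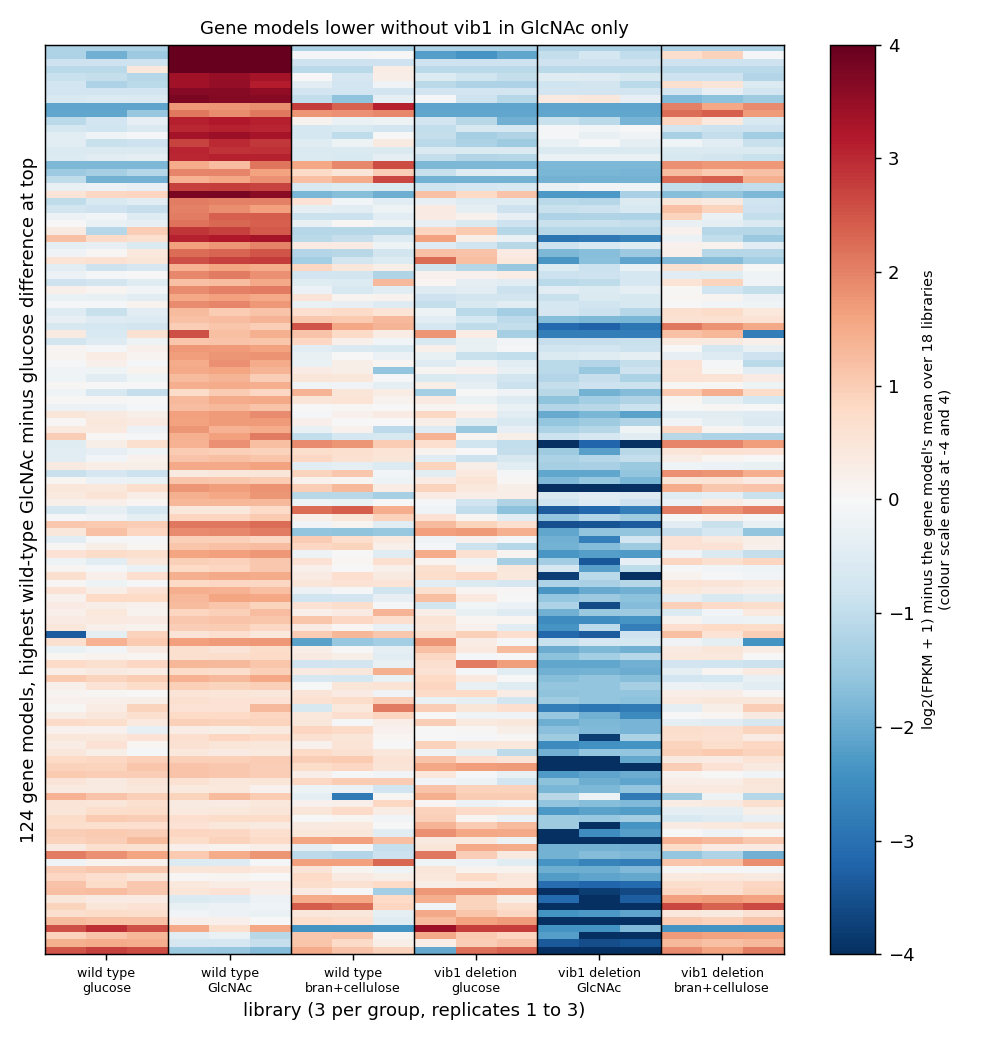
log2(FPKM + 1) of the 124 members (rows) in the 18 libraries (columns), less each member's mean over the libraries; rows are ordered by the wild-type difference between GlcNAc and glucose. Wild type in GlcNAc stands out in the upper rows and the mutant in GlcNAc in the lower rows, while the 2 strains look alike in most rows in glucose and in bran plus cellulose, as the rule requires of their means.

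How the members respond to bran plus cellulose against glucose was not part of the rule, which bounds only the strain difference within each medium. It was tested with limma within each strain, on log2(FPKM + 1) with Benjamini-Hochberg adjustment over the 8455 gene models. In wild type 33 members were higher on bran plus cellulose and 33 lower, where 32.4% and 15.9% of all gene models tested were called. In the mutant 40 were higher and 32 lower, where 28.4% and 34.1% were called. With a difference of at least 1 log2 unit also required, the wild type gave 17 higher and 16 lower (6.33% and 5.09% of all tested) and the mutant 25 higher and 15 lower (12.3% and 11.7%). The median difference of the members was −0.01 in the wild type and 0.09 in the mutant, beside medians of 0.14 and −0.06 over all gene models tested. The members thus had no common direction between these media.

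The 2 strains are tied to each other here, since the rule bounds the strain difference of the group means at 1 log2 unit in either medium. Differences from limma, which average log2 values, are not bounded in the same way, and those of the strains lay over 1 log2 unit apart in 11 members. Of the 124 members, 28 were called higher in both strains and 24 lower in both, where 14.2% and 9.5% of all gene models tested were. In neither strain 41 were called, against 23.9% of all tested. The rule favours like calls in both strains, so nothing is read from these counts. In 3 members the calls were opposite, against 11% of all tested, which were PDE_04666 and PDE_07454 (lower in the wild type, higher in the mutant) and PDE_08788 (the reverse). Their limma differences were between −0.38 and 0.59 log2 units. The difference between the strains' responses was not tested, since the rule bounds it.

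**Figure D5:**
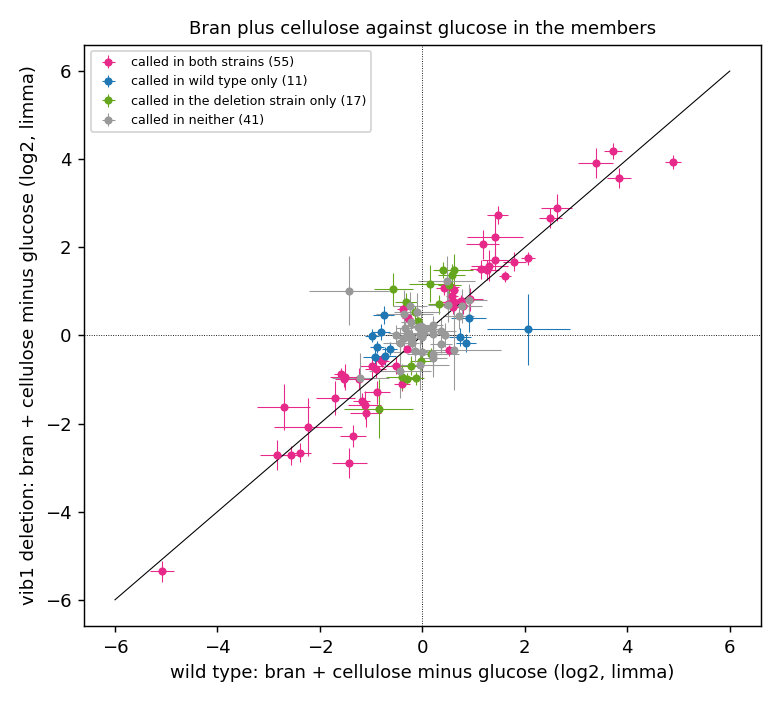
Difference between bran plus cellulose and glucose in the wild type (horizontal axis) and in the mutant (vertical axis) for the 124 members, in log2 units from limma with standard errors as bars; the diagonal marks equal differences. Of the members, 113 lie within 1 log2 unit of equal differences and 11 farther off, with PDE_09230, picked after its values were seen, the farthest, at −1.43 in the wild type and 1.01 in the mutant. Its mutant libraries in glucose stood at 25.03, 497 and 549 FPKM, and it was called in neither strain.

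Among members higher on bran plus cellulose, those with the largest differences were listed at 0 in glucose. PDE_06306 was listed at 0 in all glucose libraries of both strains. On bran plus cellulose it stood at 29.4, 21.5 and 36.8 FPKM in the wild type (limma adjusted p = 4.91e-12) and at 16.6, 11.7 and 14.96 FPKM in the mutant (adjusted p = 1.16e-11). In GlcNAc it stood at 13.4, 13.6 and 14.9 FPKM in the wild type and was listed at 0 in the mutant. PDE_03534 had the same layout, with 9.28, 12.2 and 20.4 FPKM in the wild type on bran plus cellulose (limma adjusted p = 7.42e-09) and 8.80, 7.26 and 14.48 FPKM in GlcNAc. PDE_03362 stood at 18.9, 21.1 and 12.7 FPKM in the mutant on bran plus cellulose and was listed at 0 there in glucose (limma adjusted p = 1.69e-11). In these 3 members all wild-type libraries in GlcNAc and on bran plus cellulose were above 0. The mutant was above 0 on bran plus cellulose and listed at 0 in glucose and GlcNAc. In wild-type glucose the only value above 0 was 0.48 FPKM, for PDE_03362 in replicate 3. Groups listed at 0 throughout add no spread to the fit. Over all alternative settings the limma adjusted p of PDE_06306 reached 2.94e-05 in the wild type and 8.65e-06 in the mutant. That of PDE_03534 reached 0.00024 in the wild type, and that of PDE_03362 reached 1.67e-05 in the mutant.

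With values above 0 in both media, PDE_09040 and PDE_09616 were also higher on bran plus cellulose. PDE_09040 averaged 36.2 ± 1.07 FPKM there in the wild type and 57.0 ± 19.0 FPKM in the mutant. The differences from glucose were 1.47 ± 0.21 (SE) and 2.73 ± 0.21 log2 units (limma adjusted p = 4.59e-05 and 2.57e-08). PDE_09616 stood at 508, 444 and 170 FPKM in the wild type and averaged 558 ± 62.3 FPKM in the mutant. Its differences were 1.18 ± 0.32 and 2.07 ± 0.32 (limma adjusted p = 0.00773 and 5.38e-05), and the wild-type p was 0.066 in a fit to the 6 wild-type libraries of these media alone.

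Among members lower on bran plus cellulose, PDE_00046 stood at 30.3, 39.1 and 30.1 FPKM in glucose in the wild type, against 54.5, 34.2 and 34.1 FPKM in the mutant. It was listed at 0 in all 6 libraries on bran plus cellulose (limma adjusted p = 3.3e-10 in the wild type and 3.57e-11 in the mutant). Over all alternative settings these limma p-values reached 6.00e-06 and 6.56e-06. In GlcNAc PDE_00046 stood at 13.8, 7.43 and 14.1 FPKM in the wild type, against 0, 0 and 0.54 FPKM in the mutant. PDE_07409 fell by 2.56 ± 0.21 log2 units in the wild type and by 2.72 ± 0.21 in the mutant (limma adjusted p = 2.03e-07 and 2.93e-08). PDE_06746 fell by 2.84 ± 0.33 in the wild type, from 16.2 ± 2.89 to 1.37 ± 0.248 FPKM (limma adjusted p = 6.54e-06). PDE_09478 fell by 2.91 ± 0.34 in the mutant, from 27.0, 12.7 and 6.90 FPKM to 0.75, 0.76 and 1.33 FPKM (limma adjusted p = 2.63e-06). PDE_07106 fell by 1.19 ± 0.17 and 1.48 ± 0.17 (limma adjusted p = 5.04e-05 and 2.29e-06).

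The calls can be set beside the division by GlcNAc response. Of the 37 members in which only the wild type was higher in GlcNAc, 12 were called higher and 4 lower on bran plus cellulose in the wild type, and 17 and 3 in the mutant. Of the 47 in which only the mutant was lower in GlcNAc, 8 were called higher and 16 lower in the wild type, and 10 and 18 in the mutant. The 31 with both gave 10 higher and 10 lower in each strain. Of all gene models tested, 32.4% were called higher and 15.9% lower in the wild type, and 28.4% and 34.1% in the mutant. Both comparisons share the glucose libraries, so the counts are given side by side only, and nothing is read from them.

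In each group the members varied more between replicates than all 6247 gene models of 10 FPKM or more in wild-type GlcNAc. These include the members. The median SD of log2(FPKM + 1) over 3 replicates was 0.0923 for members and 0.0708 for those 6247 gene models in the wild type in GlcNAc. It was 0.279 and 0.144 in the mutant in glucose, and 0.265 and 0.150 in the wild type on bran plus cellulose. Replicate 1 of the mutant in glucose lay over 1 log2 unit above both other replicates in 8 members and below them in 3. For replicate 3 of the wild type on bran plus cellulose these counts were 5 and 5, and for replicate 2 of the mutant in GlcNAc 3 and 6. PDE_00508, PDE_00509 and PDE_09616 were all low in replicate 3 of the wild type on bran plus cellulose. Without that library 36 members were called higher and 33 lower in the wild type on bran plus cellulose against glucose, and without replicate 1 in glucose 42 and 27 in the mutant (limma). Leaving out any 1 library gave sets of 117 to 128 members, of which at least 116 were among the 124. In GlcNAc, PDE_01143 and PDE_03534 had the widest wild-type ranges, at 39.4, 14.6 and 16.9 FPKM and at 8.80, 7.26 and 14.48 FPKM, and both were listed at 0 in the mutant there.

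Locus tags that follow each other were used to look for neighbouring members, and the positions themselves were not analysed here. Of the 123 members with PDE tags, 6 had another member on an adjacent tag (4.88%), against 2.33% of the other 9023 PDE gene models. Within 2 tags the count was 14 (11.4%, against 4.75%). Within 5 tags the count was 26 (21.1%, against 11.1%), and within 10 tags 40 (32.5%, against 20.8%). No stretch with gaps of at most 2 tags held more than 2 members, and there were 7 such pairs. Members thus had another member close by more often than the other PDE gene models did, at each of these distances, although most had none. Those others include gene models under 10 FPKM in wild-type GlcNAc, which could not be members, and no share without them was taken. The difference between members and others was not tested. Of the 210 gene models on tags adjacent to members, 41 had a GlcNAc strain difference of −1 or lower (19.5%), against 12.8% of the 8842 remaining gene models, and their median difference was 0.17, as in the rest.

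The pair of adjacent tags with the highest levels was PDE_00508 and PDE_00509. PDE_00508 stood at 1912, 2051 and 1650 FPKM in the wild type in GlcNAc and at 84.7, 97.6 and 112 FPKM in the mutant, a difference of −4.24 beside the −4.29 of PDE_00509. In glucose it averaged 3110 ± 188 FPKM in the wild type and 4608 ± 108 FPKM in the mutant. Both were lower on bran plus cellulose than in glucose in the wild type, with differences of −1.50 ± 0.29 log2 units (SE; limma adjusted p = 0.000617) for PDE_00508 and −0.93 ± 0.24 (limma adjusted p = 0.00456) for PDE_00509. Without replicate 3 of the wild type on bran plus cellulose these became −0.99 and −0.54, and in a fit to the 6 libraries compared the adjusted p of PDE_00509 from limma was 0.0615. The tags on either side, PDE_00507 and PDE_00510, averaged 6.17 and 2.98 FPKM in the wild type in GlcNAc, with strain differences of 0.07 and 0.10 there. The low mutant level in GlcNAc thus covered this pair, and the flanking tags differed little between strains there. Both genes of the pair were higher without vib1 on bran plus cellulose. For PDE_00508 the mutant libraries there read 2432, 2213 and 2531 FPKM, beside wild-type libraries of 1735, 1404 and 538 FPKM. The limma strain differences on that medium were 1.13 (adjusted p = 0.0105) for PDE_00508 and 0.75 (adjusted p = 0.0289) for PDE_00509. The rule used this contrast, and replicate 3 of the wild type was low in both genes.

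PDE_08250 and PDE_08258, both above 0 only in the wild type in GlcNAc, lie 8 tags apart. The 7 gene models between them had strain differences in GlcNAc from −0.47 (PDE_08253) to 1.60 (PDE_08256) and averaged at least 7.78 FPKM (PDE_08251) in every group. PDE_05082, PDE_08155 and PDE_04612, the other members of close pairs with high levels in GlcNAc, averaged 376 ± 14.2, 293 ± 10.6 and 281 ± 1.91 FPKM in the wild type there. Without vib1 they averaged 82.0 ± 5.10, 56.1 ± 4.44 and 68.7 ± 9.14 FPKM. Partners in such pairs did not always share a pattern: PDE_05080 was higher in GlcNAc than in glucose in the wild type by 1.60 log2 units, while PDE_05082, 2 tags away, had a difference of −0.60.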

How the data were processed

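The libraries were tag libraries per the labels' protocols: poly(A) RNA was captured, its cDNA digested with NlaIII, and a short tag next to the site released by MmeI for Illumina sequencing. The authors deposited FPKM, per the file headers. How FPKM were made from tags, with which aligner, build and lengths, is not given in the sources used here. Whole-read steps could not be recovered: of 12166 ratios of low values to a gene's lowest value, 19.8% lay within 0.1 of a whole number.

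The members, lists and tests were chosen with earlier results of these data known. Gene models with at least 1 FPKM in 3 libraries were tested (8455 tested, 721 left out, all 124 members tested). One model with 6 group means was fitted to log2(FPKM + 1) with limma 3.58.1 in R 4.3.3 (eBayes with trend and robust, two-sided, Benjamini-Hochberg), called at an adjusted p under 0.05. The pseudocount of 1 understates differences of low genes, and a group listed at 0 throughout has no spread of its own. The fit was tested on simulated data. Tables and plots used Python 3.11.15 with pandas 2.3.3 and matplotlib 3.10.9.

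Named members followed a fixed rule: the highest wild-type GlcNAc means, the lowest GlcNAc differences, the largest media differences in each strain, the edges of the rule, close tag pairs, and the widest replicate ranges, at most 2 each or 5 for tag pairs. Members named for being few are marked. Alternatives were other pseudocounts, filters and scalings, a simpler eBayes, the compared libraries alone, a replicate block and leaving out each library. Keyword lists were not used, since IDs have no names.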

Additional observations from a re-analysis of the deposited data

How the results depend on the processing

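The number of members was 120 and 109 with pseudocounts of 0.1 and 5, of which 107 and 83 were among the 124. It was 152 after median-ratio rescaling (117 shared), 141 after quantile normalization (114 shared), 103 with all libraries at the same total (96 shared), and 150 and 101 with a minimum of 5 and 20 FPKM. Leaving out each library gave 117 to 128. The 70 members higher in GlcNAc in wild type became 64 to 73 under the other pseudocounts, scalings and left-out libraries, and the 83 lower in the mutant became 71 to 85. Restricting to the 99 members above 0 in all mutant libraries in GlcNAc, added after the data were seen, left 57 and 68. For bran plus cellulose against glucose, requiring at least 1 log2 unit left 17 of 33 higher and 16 of 33 lower in wild type, and 25 of 40 and 15 of 32 in the mutant. Leaving out libraries gave 27 to 36 higher and 30 to 33 lower in wild type, and 38 to 43 and 26 to 31 in the mutant. All other settings kept these 4 counts within 1.5 times. With the replicate number as a block, 32 and 33 were called in wild type and 40 and 31 in the mutant. Same-numbered libraries of these media had residual correlations of 0.125, −0.0442 and 0.0862 in wild type. Of the libraries, 4 of 6 in wild type and 2 of 6 in the mutant correlated best with their own number. No consistent pairing by number was seen, and 3 libraries a group cannot exclude one. Of the named members tested, PDE_00509 and PDE_09616 lost their wild-type call in the fit to the compared libraries alone. PDE_00509 in the mutant was not called (limma adjusted p = 0.0785), but was in that fit (0.0274), with all libraries at the same total (0.0271) and without replicate 1 in glucose (0.0474); its p ran from 0.0271 to 0.202 over all alternatives. With a pseudocount of 5, PDE_06746 changed from −2.84 to −1.72 in wild type and PDE_09478 from −2.91 to −1.67 in the mutant, since a larger pseudocount shrinks low genes. Depth is unknown, so no detection limit can be given.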
